A study of Mus musculus with 3 samples.

Results

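The Ms4a genes (membrane-spanning 4-domains subfamily A) encode small proteins that cross the cell membrane repeatedly, and 7 of them were followed over 3 mouse cell populations: Ms4a1, Ms4a4b, Ms4a4c, Ms4a6b, Ms4a6c, Ms4a6d and Ms4a7. All probe sets annotated to 1 of these symbols and to no other gene were taken, which gave 15 probe sets of 34945 with a single gene symbol and 7 genes of 18193. The 7 symbols were chosen by their place in the family and by their signals on these same 3 arrays, which were already known, so their levels and counts are a description and no test was made. Messenger RNA was measured with 1 array each in B6N-22 embryonic stem (ES) cells, in splenic B220 B cells and in splenic CD4 T cells, all of the C57BL/6 strain. The ES cells grew on feeder cells, mouse embryonic fibroblasts blocked with mitomycin C, in serum medium with leukemia inhibitory factor. The B cells and T cells came from mice of 6 to 8 weeks, untreated as far as the labels say, and were sorted with magnetic beads to a purity the labels put above 98%. The sources used here do not say whether animals were pooled or feeder cells taken out before extraction.

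The founding member of the family is CD20, the product of Ms4a1, a surface protein of B cells that is part of the B cell calcium response and the target of antibodies used against B cell lymphoma. Other members sit on T cells or on myeloid cells, where they are thought to act as adaptors or partners of other membrane receptors. In the mouse, Ms4a4b protein associates with the costimulatory receptor GITR on T cells and restrains their proliferation, Ms4a7 is a macrophage gene, and several Ms4a proteins act as odour receptors in olfactory neurons. Most Ms4a genes lie side by side in a cluster, as copies of one another.

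A pair of neighbouring copies, Ms4a4c and Ms4a4b, is shown by sequence. Their promoter windows had the most identical bases among the member promoters available. The 2 genes differed in opposite directions between the B cell and T cell arrays. Of the 7 genes, 5 were found in RefSeq's promoter table of build GRCm38.p6, with 6 start sites. Each promoter holds 250 bases before and 50 after the start site, and both shown lie on the plus strand, Ms4a4b at chr19:11443308-11443607 and Ms4a4c at chr19:11407411-11407710. Capitals mark the motifs found by letters on either strand, namely the octamer ATTTGCAT, which POU-domain factors bind, the PU box GAGGAA, the Runx core TGTGGT and the TATA box TATAAA.
Ms4a4b promoter: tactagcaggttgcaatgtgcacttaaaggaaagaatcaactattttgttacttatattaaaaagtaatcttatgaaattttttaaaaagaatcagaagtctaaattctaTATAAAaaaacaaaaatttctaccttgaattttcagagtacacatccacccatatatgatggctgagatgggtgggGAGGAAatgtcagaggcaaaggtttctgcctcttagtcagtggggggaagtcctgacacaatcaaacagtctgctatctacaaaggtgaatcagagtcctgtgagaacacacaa
Ms4a4c promoter: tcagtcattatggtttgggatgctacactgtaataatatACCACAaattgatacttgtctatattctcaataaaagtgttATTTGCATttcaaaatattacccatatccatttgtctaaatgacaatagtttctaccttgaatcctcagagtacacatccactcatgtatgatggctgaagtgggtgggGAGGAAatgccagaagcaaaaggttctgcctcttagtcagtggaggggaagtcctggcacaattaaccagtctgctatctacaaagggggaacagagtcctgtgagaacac

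In a global alignment, 237 of the 300 bases of these promoters were identical (79.0%), more than in any other of the 15 pairs of member promoters. Ms4a6b and Ms4a6c followed with 197 identical bases, and the remaining pairs had 169 to 185. Unrelated promoters were not aligned, so how many identical bases such a pair would have is not known here. These counts are over fixed windows. The stretch that Ms4a6b and Ms4a6c share lies at shifted places in their windows, which lowers their count. The counts therefore do not rank the pairs by likeness of the shared sequence alone. A PU box was found in both, with its first base at -64 from the start site in Ms4a4b and at -61 in Ms4a4c. The octamer was found in the Ms4a4c promoter, beginning at -170, and not in that of Ms4a4b, and the TATA box letters were found in Ms4a4b, at -140, and not in Ms4a4c. A Runx core, on the minus strand, was found in Ms4a4c at -211. Of the 32851 mouse promoters of the same length, 1.74% held the octamer, 28.3% the PU box, 16.8% the Runx core and 13.6% the TATA box letters on either strand. Among the other member promoters 1 match was found, a PU box in an Ms4a7 promoter, with its first base at position 44, counted from the start site as 1. These matches describe letters in a window and say nothing of whether a factor was bound.

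The values are array signals on a linear scale, as the authors deposited them. A probe set's signal depends on its probes as well as on its transcript, so a probe set was compared with itself across arrays. Between genes only the resulting differences were compared. The detection level was the median of all values on the 3 arrays, a signal of 95.0. Lower signals were raised to it before a difference was taken, so that a fold against an array below it is a lower bound, written "at least". A gene was called different at a change of 4-fold or more (2 on the log2 scale), provided the brighter array exceeded the detection level. Genes with several probe sets were counted by the one with the highest mean signal. Each population had a single array, so no value has a replicate error, and precision is limited by the number of arrays. A measure of probe error was had from genes with several probe sets, where both sets of the top pair exceeded the detection level on both arrays. The pair disagreed by a median of 0.28 on the log2 scale for T cells against B cells (4555 genes). The median was 0.46 for T cells against ES cells (3927 genes) and 0.41 for B cells against ES cells (3887 genes).

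The arrays carried the markers of their labels. All 9 ES cell markers exceeded the detection level in ES cells and 1 of 9, Klf4, in each lymphocyte array, and all 11 T cell markers on the array exceeded it in T cells and all 11 B cell markers in B cells. Markers of other cells were present too. In the B cell array 9 of 11 T cell markers were detected, with a summed signal of 1646 against 99421 in the T cell array, and in the T cell array 10 of 11 B cell markers were detected, with a summed signal of 7058 against 147046 in the B cell array. Macrophage and monocyte markers summed to 32548 in B cells and 75882 in T cells against 4681 in ES cells, with 14 of 15 detected in each lymphocyte array and 11 of 15 in ES cells. In ES cells the macrophage and monocyte markers had a median signal of 127.2, and Lyz2 alone had 2836. All 10 fibroblast markers were detected in ES cells, with a summed signal of 71502. In such bulk samples fewer cells of a type and less RNA per cell cannot be told apart.

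Ms4a1, the gene of CD20, had its highest signals in B cells. Its probe set 1423226_at had a signal of 79.5 (ES cells), 32919 (B cells) and 2202 (T cells). The probe set 1450912_at had signals of 6.4, 16051 and 777.8 in the same order. Both were thus highest in B cells, intermediate in T cells and below the detection level in ES cells. Against T cells, B cells were 14.9-fold higher by the first probe set and 20.6-fold by the second, a log2 difference for T cells minus B cells of -3.90 and -4.37, so the sets differed by 0.47. Against ES cells, B cells were at least 347-fold higher and T cells at least 23.2-fold higher by the first, and at least 169-fold and at least 8.19-fold by the second. The 11 B cell markers were lower in T cells by a median of -4.51 on the log2 scale, with a range of -5.57 to -2.62, and the difference of Ms4a1 lay inside that range. The part of B cells in the T cell array's Ms4a1 signal was not tested.

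Ms4a4c also had its highest signals in B cells. The probe set 1420671_x_at had a signal of 13.0 (ES cells), 9297 (B cells) and 1609 (T cells). The probe set 1450291_s_at gave 29.0, 8613 and 1514 in the same order, so both sets showed the same order and ES cells were below the detection level in each. B cells were 5.78-fold higher than T cells by the first set and 5.69-fold by the second, and the log2 differences for T cells minus B cells, -2.53 and -2.51, were 0.02 apart. Against ES cells, B cells were at least 97.9-fold and T cells at least 16.9-fold higher. By either set the difference between T cells and B cells was smaller in size than the values of the 11 B cell markers, the smallest of which, -2.62 for Pax5, is a bound. Both probe sets carry a suffix that Affymetrix gives to sets whose probes can match several transcripts. The part of related transcripts in the Ms4a4c signals was not tested.

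Ms4a4b was the gene with the greatest difference in the other direction. Its probe set 1423467_at had a signal of 4.6 (ES cells), 1275 (B cells) and 28496 (T cells). The probe set 1425325_at had 18.7, 58.7 and 651.2 in the same order. T cells were therefore highest by both sets, and the dimmer set put B cells below the detection level. T cells were 22.3-fold higher than B cells by the first set, a log2 difference of 4.48, and at least 6.85-fold higher by the second. Against ES cells, T cells were at least 300-fold and B cells at least 13.4-fold higher by the first set. Averaging the probe sets put the log2 difference of B cells against ES cells at 1.87 in place of 3.75, short of the 4-fold threshold. In T cells the 11 T cell markers exceeded their B cell signals by a median of 5.81 on the log2 scale, and the 9 of them measured on both arrays ranged from 5.56 to 6.62, all above Ms4a4b. The other 2, Cd4 and Cd3e, had lower bounds of 3.13 and 5.13. The part of T cells in the B cell array's Ms4a4b signal was not tested.

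Ms4a6b had the same order as Ms4a4b. Its probe set 1418826_at had a signal of 62.6 (ES cells), 3019 (B cells) and 19004 (T cells). The probe set 1439956_at had 0.6, 686.9 and 6545 in the same order. Both sets were highest in T cells, clearly detected in B cells and below the detection level in ES cells. T cells were 6.29-fold higher than B cells by the first set and 9.53-fold by the second, or 2.65 and 3.25 on the log2 scale. Against ES cells, T cells were at least 200-fold and B cells at least 31.8-fold higher by the first set, and at least 68.9-fold and at least 7.23-fold by the second. By either set the difference between T cells and B cells was smaller than those of the 9 T cell markers measured on both arrays.

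**Figure D1:**
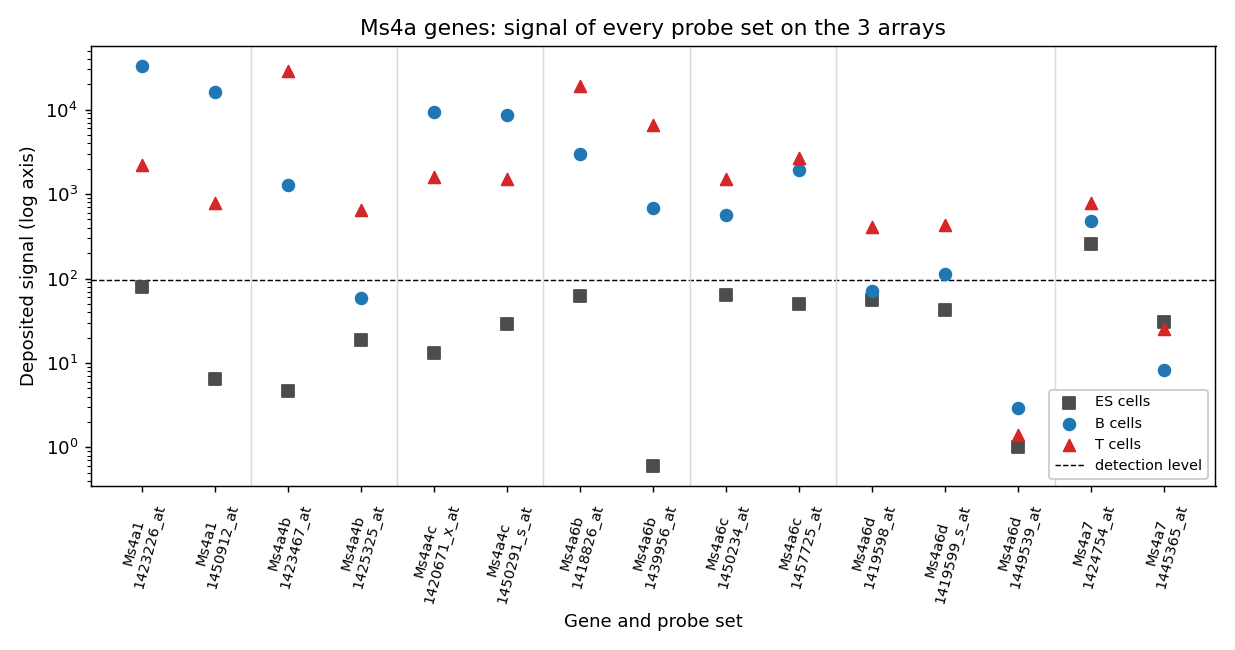
Deposited signal on a log axis for each of the 15 probe sets of the 7 Ms4a genes, with 1 point per array: squares for ES cells, circles for B cells and triangles for T cells. The dashed line is the detection level of 95.0, and of the ES cell points only that of Ms4a7 probe set 1424754_at, at 258.5, lies above it.

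The remaining 3 genes are known in the mouse mainly from monocytes and macrophages. Ms4a6c probe set 1457725_at had a signal of 49.9 (ES cells), 1948 (B cells) and 2711 (T cells). The probe set 1450234_at had 64.4, 558.1 and 1514 in the same order. Both lymphocyte arrays were far above the detection level, T cells being 1.39-fold higher than B cells by the first set and 2.71-fold by the second. These log2 differences of 0.48 and 1.44 were 0.96 apart. That is more than the 90th percentile of such disagreements, 0.77, over the 4555 genes with both sets above the detection level. Against ES cells, T cells were at least 28.5-fold and B cells at least 20.5-fold higher by the first set.

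Ms4a6d was detected weakly, and mainly in T cells. Its probe set 1419599_s_at had a signal of 42.8 (ES cells), 111.8 (B cells) and 434.1 (T cells). The probe set 1419598_at had 55.1, 71.9 and 411 in the same order, and the third, 1449539_at, was below the detection level on every array, with 1.0, 2.9 and 1.4. T cells were 3.88-fold higher than B cells by the first set and at least 4.33-fold higher by the second, so the gene lay just outside the 4-fold threshold by the set that represents it and just inside by the other. Against ES cells T cells were at least 4.57-fold and B cells at least 1.18-fold higher by the first set. The call against ES cells was lost where the detection level was set at the 65th percentile of all values, which gave a log2 difference of 0.83, where the probe sets were averaged, which gave 1.44, and where a call needed all of its probe sets. Like an Ms4a4c set, the brightest set of Ms4a6d has the suffix of shared probes.

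Ms4a7 was the only one of the 7 genes above the detection level on all 3 arrays. Its probe set 1424754_at had a signal of 258.5 (ES cells), 479.6 (B cells) and 781.2 (T cells). The other set, 1445365_at, was below the detection level throughout, with 30.7, 8.2 and 25.4. T cells were 3.02-fold higher than ES cells and 1.63-fold higher than B cells, and B cells 1.86-fold higher than ES cells, none of which reached 4-fold. The log2 difference of 0.70 between T cells and B cells was larger than the median disagreement of probe sets and smaller than its 90th percentile.

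All 3 genes had higher signals in T cells, as had 14 of 15 macrophage and monocyte markers. Compared with B cells, those markers had a median log2 difference of 1.28, with a range of -0.09 to 1.73. The median of all measured genes was -0.05. Of the markers, 0 of 15 reached 4-fold in either direction, where 2.49% of all measured genes were higher and 1.85% lower. Nothing is read from that count. Csf1r, whose product is the growth factor receptor that macrophages depend on, had signals of 208.9 (ES cells), 8930 (B cells) and 19275 (T cells), a log2 difference for T cells minus B cells of 1.11. The integrin gene Itgam was near or below the detection level on every array, with a highest signal of 101.0. The differences of Ms4a7 and Ms4a6c by their representing sets, 0.70 and 0.48, lay inside the range of the markers only through Itgam. Its value of -0.09 is a bound. Both differences were below those of the other 14 markers, of which Mpeg1 had the lowest, 0.84. The other set of Ms4a6c, at 1.44, lay among those 14. The difference of Ms4a6d, 1.96, lay above the whole range, as did the lower bound of its other detected set, 2.11. If values below the 65th percentile count as undetected, the Ms4a6d difference was only a lower bound, 0.83. Its mean over probe sets, 1.36, counts the set below the detection level on every array as 0. The marker range was not recomputed at these settings. Dendritic cell markers had a median of 1.48 over 6 measured genes and neutrophil markers 0.16 over 6, and of 9 cytotoxic cell markers 6 had the higher signal in T cells. The part of macrophages or dendritic cells in the signals of Ms4a6c, Ms4a6d and Ms4a7 was not tested.

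**Figure D2:**
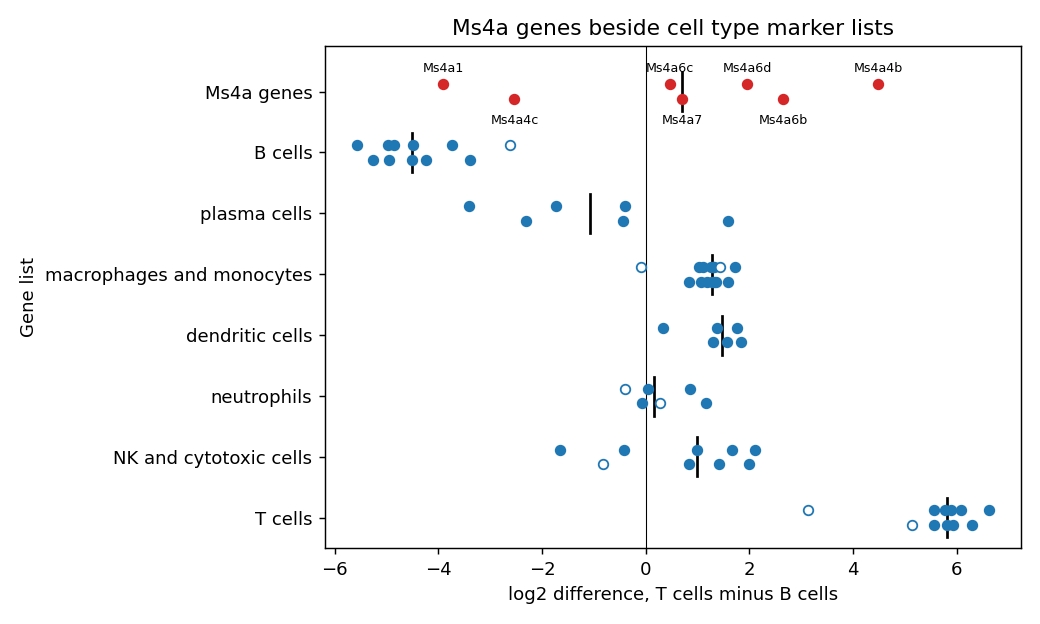
Log2 difference for T cells minus B cells of the 7 Ms4a genes (red) and of the genes of 7 marker lists (blue), 1 point per gene. Open points are bounds because 1 array was below the detection level, and vertical bars are medians. Ms4a1 at -3.90 stands among the B cell markers, Ms4a4b at 4.48 below all 9 filled points of the T cell markers, and Ms4a6c and Ms4a7 at 0.48 and 0.70 between 0 and most macrophage markers.

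Counted together, 6 of the 7 genes exceeded ES cells by 4-fold or more in T cells, against 10.8% of 12325 measured genes, and 0 were at least 4-fold lower, against 10.2%. The exception was Ms4a7. In B cells 5 of 7 exceeded ES cells by 4-fold or more, against 9.85% of 12463 measured genes, and 0 lower, against 10.3%, with Ms4a6d and Ms4a7 as the exceptions. In each of these comparisons 6 of the 7 differences were lower bounds. The median log2 difference of the 7 genes was 4.53 for T cells against ES cells and 4.36 for B cells against ES cells, where the medians of all measured genes were -0.11 and -0.07. Both comparisons share the ES cell array. Since the genes were chosen with these differences known, nothing is read from the shares. Scaling the arrays to their 75th percentile moved the medians of all genes to -0.42 and -0.37, and the share of called genes that were higher in lymphocytes from 51.5% to 38.6% for T cells and from 48.8% to 37.4% for B cells, and left the 6 and 5 members counted.

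**Figure D3:**
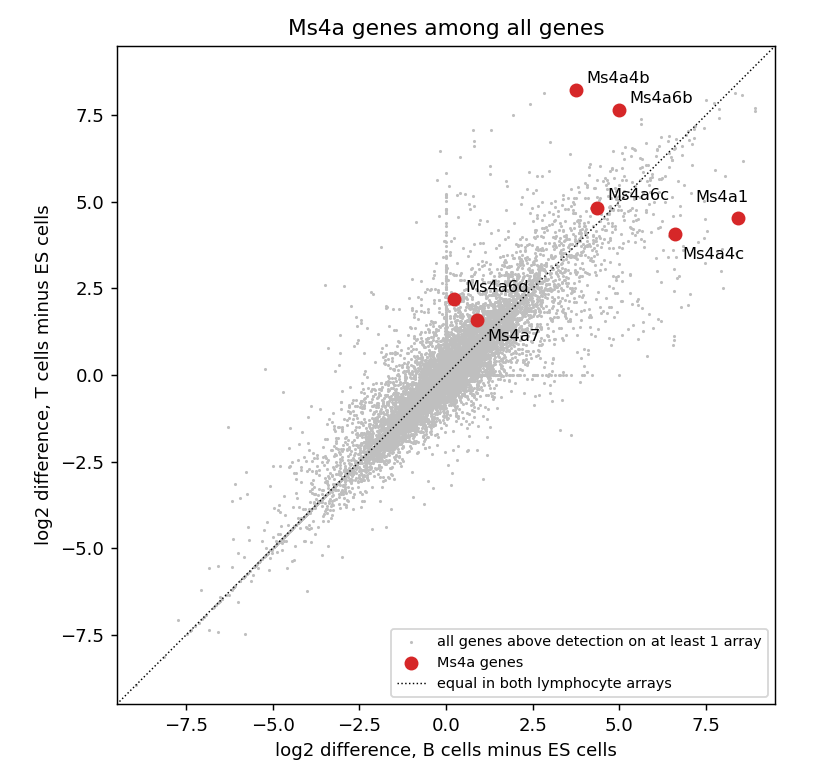
Log2 difference against ES cells for B cells (horizontal axis) and T cells (vertical axis), with 1 point per gene above the detection level on at least 1 array. The 7 Ms4a genes (red) are all above 0 on both axes; Ms4a4b and Ms4a6b lie above the dotted line of equal lymphocyte levels, at 8.23 and 7.64 for T cells, and Ms4a1 and Ms4a4c below it, at 8.44 and 6.61 for B cells.

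Between the lymphocyte arrays the family was split. T cells exceeded B cells by 4-fold or more for Ms4a4b and Ms4a6b, 2 of 7 against 2.49% of 11194 measured genes, and fell short of them by that much for Ms4a1 and Ms4a4c, 2 of 7 against 1.85%. The remaining 3 had differences of 0.48 to 1.96 on the log2 scale. Every one of these 7 differences was measured on both sides, with no bound. Among the 9644 genes above the detection level on both lymphocyte arrays, Ms4a4b had the 21st highest difference and Ms4a6b the 90th highest, and Ms4a1 had the 32nd lowest and Ms4a4c the 108th lowest. In all 6 genes with a second probe set that gave a difference, both sets had the same direction.

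Along chromosome 19, RefSeq's gene table of assembly GRCm38.p6 lists 22 protein-coding genes from the first to the last Ms4a gene, 21 of them Ms4a genes. No genome build is named for the array files, so only the order was used. Between Ms4a1 and the other 6 lie Ms4a5 and Ms4a14, neither of which had a probe set of a single symbol. The 6 fall within the run Ms4a7, Ms4a4a, Ms4a4c, Ms4a4b, Ms4a6c, Gm8369, Ms4a6b, Ms4a4d and Ms4a6d. Neighbours in that run differed in direction: Ms4a4c was lower in T cells by -2.53 on the log2 scale and the next gene, Ms4a4b, was higher by 4.48. Ms4a6c, next again, was higher by 0.48. The predicted gene Gm8369, named after its values were seen, lies between Ms4a6c and Ms4a6b and had signals of 3.5 (ES cells), 3212 (B cells) and 1205 (T cells), a difference of -1.41 for T cells minus B cells.

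**Figure D4:**
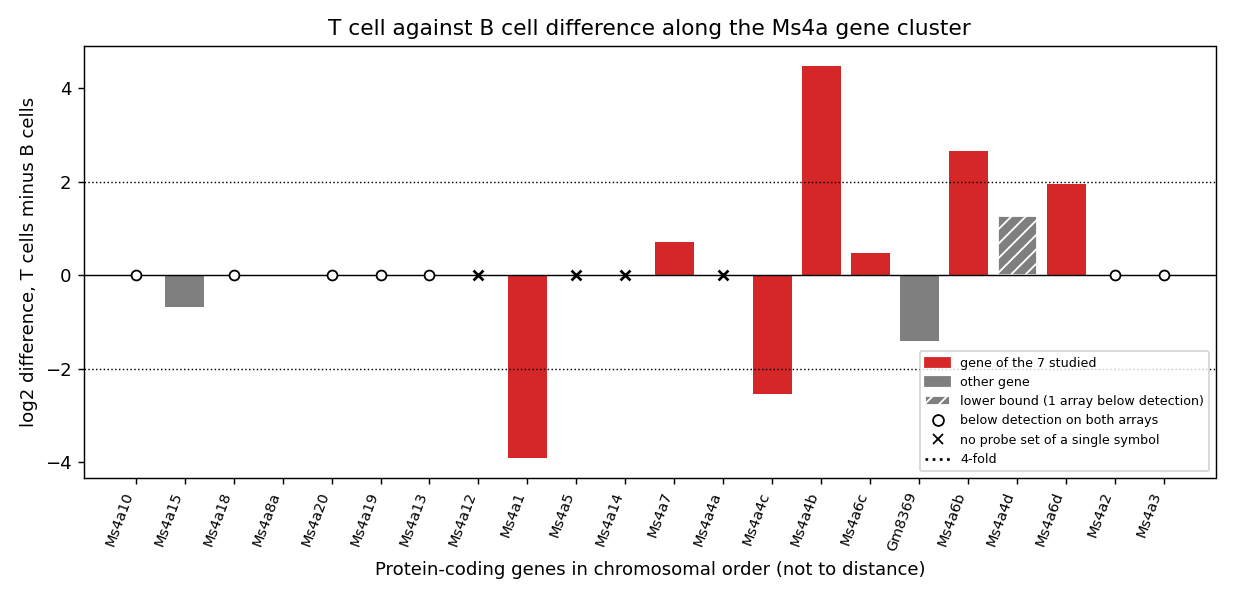
Log2 difference for T cells minus B cells of the 22 protein-coding genes from Ms4a10 to Ms4a3, in chromosomal order and not drawn to distance. Red bars are the 7 genes followed here, grey bars other genes, hatched bars lower bounds, open circles genes below the detection level on both arrays, and crosses genes with no probe set of a single symbol; the bar of Ms4a8a, at 0.02, is too short to see. The bars change sign between neighbours, from -2.53 in Ms4a4c to 4.48 in Ms4a4b.

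The other Ms4a genes were dim in all 3 populations. Of 10 with a probe set, 4 were above the detection level on at least 1 array, as were 12776 of all 18193 genes. None of the 4 differed by 4-fold. Of all measured genes, 10.8% were higher and 10.2% lower for T cells against ES cells, and 9.85% and 10.3% for B cells against ES cells. The shares were 2.49% and 1.85% for T cells against B cells, so with so few genes nothing is read from that count. Ms4a4d had signals of 61.0 (ES cells), 22.0 (B cells) and 229 (T cells), at least 2.41-fold above either other array in T cells. Ms4a15 had 186.3, 216.6 and 136.3 in the same order. Ms4a3, a gene of myeloid precursors, had 105.3, 71.4 and 67.2, and Ms4a8a had 42.2, 51.9 and 96.6, each barely past the detection level on 1 array. Below it on every array were Ms4a10, Ms4a13, Ms4a18, Ms4a19, Ms4a20 and Ms4a2, the last of which encodes the beta chain of the IgE receptor of mast cells and had a highest signal of 44.3. Its partner Fcer1a, the alpha chain of that receptor, was below the detection level too, with a highest signal of 32.9.

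The related genes Tmem176a and Tmem176b, which encode MS4A-like proteins and lie outside the cluster, were detected in all 3 populations. Tmem176b had a signal of 858.4 (ES cells), 319.6 (B cells) and 1326 (T cells), so T cells exceeded B cells 4.15-fold. Tmem176a probe set 1423909_at had 427.7, 235.4 and 869.6 in the same order, a 3.69-fold excess of T cells over B cells, and its other sets gave 5.60-fold and 6.19-fold. Unlike the 6 Ms4a genes below the detection level in ES cells, both had higher signals in ES cells than in B cells, by 2.69-fold for Tmem176b and 1.82-fold for Tmem176a.

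Genes whose products work with or beside Ms4a proteins were compared as a list of 13, of which 12 had a probe set. Between the lymphocytes, 5 of 11 measured genes were 4-fold or more lower in T cells, against 1.85% of all measured genes, and 0 higher, against 2.49%, with a median log2 difference of -1.98. The 5 were B cell surface genes: Cd79b, whose product transmits the signal of the B cell receptor, was 28.9-fold lower in T cells, Cd79a, encoding the partner chain, 22.3-fold, Cd22, an inhibitory receptor, 18.9-fold, the costimulatory receptor gene Cd40 15.0-fold and the tetraspanin gene Cd37 5.32-fold. Cd180, which encodes a Toll-like receptor relative of B cells, was 3.94-fold lower in T cells, just short of the threshold. Tnfrsf18, which encodes GITR, the partner of Ms4a4b in T cells, had signals of 22.9 (ES cells), 987.9 (B cells) and 3219 (T cells), a 3.26-fold difference between the lymphocytes where Ms4a4b differed 22.3-fold. Against ES cells, 6 of 11 measured partner genes in T cells, against 10.8% of all measured genes, and 9 of 10 in B cells, against 9.85%, were higher by 4-fold or more, and none was lower. This list too was drawn up with results of these arrays known.

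The pattern of each gene was then matched against 12776 genes above the detection level on at least 1 array, by the distance between pairs of log2 differences (each lymphocyte array against ES cells). The measure rests on 3 arrays and on bounds, and it describes levels only. For a gene below the detection level in ES cells, both differences follow its lymphocyte signals themselves. Distances between such genes therefore depend on their probes as well. In naming the nearest genes, T cell receptor and immunoglobulin segments and genes with clone-type names were passed over. The counts of genes within a distance include them. Ms4a1 was nearest to H2-Ob, an MHC class II gene, at a distance of 0.95, to Bank1, a B cell scaffold gene, at 0.98 and to Cd79b at 1.01, and 2 genes lay within a distance of 1. Among the genes not passed over, Ms4a4b was nearest to its family member Ms4a6b, at 1.37. Fyb, an adaptor gene of T cells, followed at 1.67 and Ipcef1 at 1.86. A gene that was passed over lay closer to Ms4a4b, as 1 gene lay within a distance of 1. Ms4a7 was nearest to Cebpb, a transcription factor gene of myeloid cells among others, at 0.01, to Ciao2a at 0.02 and to Wdyhv1 at 0.04, but 1781 genes lay within 1 of it, so its pattern was shared with many genes. Among the 7 genes themselves, the smallest distances were 0.89 between Ms4a6d and Ms4a7, 1.37 between Ms4a4b and Ms4a6b and 1.88 between Ms4a1 and Ms4a4c, and the greatest was 8.53 between Ms4a1 and Ms4a6d.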

How the data were processed

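Messenger RNA was measured on 1 Affymetrix 3' array per population, from biotin-labelled total RNA, per the labels. The authors deposited linear signal intensity values for 45037 probe sets. Affymetrix Expression Console is named in the submitters' processing notes, while its version, the summarization and the treatment of background are not stated in the sources used here. After trimming 2%, the column means were 497.3 (ES cells), 497.8 (B cells) and 497.7 (T cells), so the deposited arrays share a scale and a general change in mRNA per cell cannot be seen.

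Probe sets were named through GEO's platform annotation, and their Entrez IDs were looked up in RefSeq's gene table of assembly GRCm38.p6 (34741 of 34945 found, 0 symbols changed). The 932 probe sets with several symbols and the 9160 with none were left out of gene counts. Log2 differences were computed with pandas 2.3.3 and numpy 2.4.6, and the calling was tested on simulated data. There, only genes far above the detection level were changed, well past the threshold and with little noise. That test did not cover lower bounds or differences near 4-fold. Promoters were aligned globally (match 1, mismatch -1, gap opening -2, extension -0.5). Each group being 1 array, no p-value is given. The alternatives tried stand in the closing section; leaving out probe sets ending in _s_at or _x_at was chosen after seeing the data.

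The 7 genes and all lists were chosen with earlier results of these data known. Named were all members, the other family genes with a probe set, the 6 partner genes with the greatest difference between T cells and B cells, and Tnfrsf18. Also named were the 3 genes nearest by pattern to Ms4a1, Ms4a4b and Ms4a7, with receptor segments and clone-type names passed over. Fcer1a, Csf1r, Itgam, Mpeg1, Lyz2, Klf4, Cd4, Cd3e and Pax5 were named after their values were seen.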

Additional observations from a re-analysis of the deposited data

How the results depend on the processing

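The 7 genes kept the direction of every called difference under each alternative that gave a value, but 35 of the 123 recomputed log2 differences moved by more than 1 robust SD of a probe set. The lower bounds follow the detection level: at the 65th percentile Ms4a1 in B cells against ES cells went from 8.44 to 7.07 and Ms4a4b in T cells against ES cells from 8.23 to 6.86, or to 5.50 as the mean over probe sets. Quantile normalization, scaling to the 75th percentile and 16 added in place of the floor left the counts of members as reported, at 6 and 0 (higher and lower) for T cells against ES cells, 5 and 0 for B cells against ES cells and 2 and 2 for T cells against B cells. Over the detection level at the 65th percentile, the mean over probe sets, a call that needs every probe set and a 2-fold threshold, 5 to 7 members were higher for T cells against ES cells, 4 to 5 for B cells against ES cells, and 2 to 3 higher and 2 lower for T cells against B cells. Leaving out probe sets ending in _s_at or _x_at left Ms4a4c without a probe set, so that 1 member was lower in T cells against B cells, and put Ms4a6d among 3 that were higher, by its other set. A detection level at the 65th percentile lowered every count over all genes. For T cells against ES cells the higher genes went from 1332 to 929 and the lower from 1252 to 784. For B cells against ES cells they went from 1227 to 904 and from 1289 to 799. For T cells against B cells they went from 279 to 166 and from 207 to 159. Other settings changed these counts too. For T cells against ES cells, scaling to the 75th percentile gave 1062 higher and 1688 lower, and 16 added gave 1553 and 1765. Requiring a difference in every probe set gave 770 higher and 664 lower for T cells against ES cells, and 739 higher and 679 lower for B cells against ES cells. It gave 151 higher and 141 lower for T cells against B cells, because genes with more probe sets then need more of them to pass. A 2-fold threshold counted 2802 higher and 3041 lower, 2635 higher and 3063 lower, and 995 higher and 707 lower in the same order of comparisons. No paired analysis was possible because each population has 1 array. Signals near or below 95.0 have no order, which limits Ms4a6d and every fold against ES cells except that of Ms4a7.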

Other observations

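The genes beside the Ms4a cluster were looked up after the data were seen, as the 5 nearest protein-coding genes on each side in RefSeq's order. All 10 had a probe set, and 4 were above the detection level on all 3 arrays. The number measured was 4 for T cells against ES cells and 6 for each of the other comparisons, of which 0 differed by 4-fold. Over all measured genes 10.8% were higher and 10.2% lower for T cells against ES cells, 9.85% and 10.3% for B cells against ES cells, and 2.49% and 1.85% for T cells against B cells, so with so few genes nothing is read from the count. On the side of Ms4a10, the splicing gene Prpf19 had signals of 11952 (ES cells), 7528 (B cells) and 7532 (T cells), Ccdc86 had 1719, 569.5 and 545.9, and Tmem109 had 1483, 1973 and 2474, while the egg coat gene Zp1 and the prostaglandin receptor gene Ptgdr2 were below the detection level throughout. On the side of Ms4a3, the mitochondrial ribosome gene Mrpl16 had 3514, 1800 and 1398 in the same order. Oosp1 and Oosp3, named for oocyte-secreted proteins, were above the detection level in B cells alone, at 258.6 and 140.6, and Oosp2 and Cblif were below it on every array.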
